A study of Mus musculus with 29 samples.

Results

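The T-cell receptor complex and the first steps of its signalling were followed through 10 genes in kidney, kidney tertiary lymphoid structures (TLS) and lymph nodes of NZB/W mice. The genes were the receptor chain constant regions Trac, Trbc1 and Trbc2, the CD3 chains Cd3d, Cd3e and Cd3g, the zeta chain Cd247, the kinases Lck and Zap70, and the adaptor Lat. They were chosen by name, as the parts of one complex, with earlier results of these data known. All 10 of the 10 symbols were found among the 13982 genes of the table. NZB/W mice are the F1 cross of the NZB and NZW strains and develop anti-dsDNA antibodies and lupus nephritis, and the labels name no treatment or engineered allele for any group.

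There were 14 libraries of poly(A) RNA, each from 1 mouse and 1 tissue. Proteinuric mice gave 4 kidney libraries (mice H6, H20, H115 and H117), 3 TLS libraries (mice H6, H20 and H115) and 3 lymph node libraries (mice H6, H20 and H117). These mice were 39, 36, 25 and 32 weeks old for numbers H6, H20, H115 and H117. Another 3 lymph node libraries came from anti-dsDNA antibody-positive mice 10, 11 and 25, aged 28, 29 and 18 weeks, and 1 from a mouse labelled young (number 45, 4 weeks). The TLS were cut out by hand under a loupe from the kidney that also gave the kidney tissue, and the lymph nodes were renal ones. The miRNeasy kit served for lymph nodes of antibody-positive mice and TRIzol for all other tissues, so RNA kit and disease stage cannot be told apart. Nor can age and stage, since antibody-positive mice were 18 to 29 weeks old. The proteinuric mice with lymph node libraries were 32 to 39 weeks old.

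The T-cell receptor is a pair of alpha and beta chains that bind antigen but have almost no signalling part of their own. Each pair is held at the surface by the CD3 delta, epsilon and gamma chains and the zeta chain, whose tails carry the tyrosines that the kinase Lck phosphorylates. Zap70 then docks on these tyrosines and phosphorylates Lat, on which the enzymes of the calcium, Ras and NF-kappaB branches gather. Most of these genes are expressed almost only in T cells, although natural killer cells also express Cd247, Lck, Zap70 and Lat.

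The libraries held between 343825 and 443379 reads on genes, and between 167440 and 405739 reads outside the ribosomal RNA genes. Reads of ribosomal RNA genes made up 55.6% of the kidney library of mouse H117, 31.8% in the lymph node of mouse H6 and 21.3% in the TLS of mouse H115, and 5.33% or less in the other 11 libraries. Values below are normalised read counts, that is reads plus 1 over a library's size factor, so that a gene with no read stood between 0.843 and 1.77 in kidney. The floor was set at 3 reads, a value of 2.36 to 5.32 by library. Fewer T cells and less RNA per T cell cannot be told apart in such bulk libraries.

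The beta chain has a pair of constant region genes, which lie 6849 bases apart on chromosome 6 (GRCm38, Trbc1 at chr6:41538218-41539881 and Trbc2 at chr6:41546730-41548352). Because reads of one can be counted for the other, their coding sequences were compared in the GENCODE vM21 transcripts, which are of the same build but need not be the annotation the reads were counted on. Over 521 coding bases they differed at 23 (95.6% identical), and the first 259 bases were the same. The transcripts are 737 and 692 bases long, and their bases outside the coding part were not compared one by one. The last 132 coding bases held 19 of the 23 differences. They are shown because most of the coding differences lie in them, with the bases that differ in capitals.
Trbc1: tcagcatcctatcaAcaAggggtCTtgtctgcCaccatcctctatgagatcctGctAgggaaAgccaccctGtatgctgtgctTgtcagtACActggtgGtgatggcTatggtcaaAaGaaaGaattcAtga
Trbc2: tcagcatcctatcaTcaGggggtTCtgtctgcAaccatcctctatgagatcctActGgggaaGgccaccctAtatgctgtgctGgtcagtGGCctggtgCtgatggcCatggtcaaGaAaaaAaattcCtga
Of all windows of 100 bases, 28.7% in the Trbc1 transcript and 30.9% in the Trbc2 transcript also stood in the other. Counts of the pair are therefore uncertain one by one and firmer as a sum.

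The CD3 genes lie side by side on chromosome 9, where Cd3g (chr9:44969572-44980431), Cd3d (chr9:44981786-44987339) and Cd3e (chr9:44998740-45009627) span 40056 bases, and the start sites of Cd3g and Cd3d are 1355 bases apart and the genes run away from each other. Promoter windows of 300 bases were given by RefSeq (GRCm38.p6) for 7 of the 10 genes, in 10 windows, since Lck has 2 and Zap70 has 3. As a description, the windows were searched on both strands for the letters AGGAAG, the core bound by ETS factors, and TGTGGT, the core bound by RUNX factors. The ETS letters stood in 8 of the 10 windows, against 35.4% of all 32851 promoter windows, and the RUNX letters in 3 of 10, in Lat, Lck and Zap70, against 16.8%. Letters of the TCF/LEF core (CTTTGA) stood in 3 windows against 16.0% of all, and AGATAA, the letters of GATA factors, in 1 against 11.2%. The TATA box letters (TATAAA) stood in 0 against 13.6%, and those of the GC box (GGGCGG) in 2 against 35.7%. The windows are few and share loci, and a match is a description of letters only. The first window of Lck and those of Cd3d, Cd3e and Lat are shown, as examples of CD3 chains, kinase and adaptor, with the ETS and RUNX letters of either strand in capitals.
Cd3d, chr9:44981536-44981835, plus strand: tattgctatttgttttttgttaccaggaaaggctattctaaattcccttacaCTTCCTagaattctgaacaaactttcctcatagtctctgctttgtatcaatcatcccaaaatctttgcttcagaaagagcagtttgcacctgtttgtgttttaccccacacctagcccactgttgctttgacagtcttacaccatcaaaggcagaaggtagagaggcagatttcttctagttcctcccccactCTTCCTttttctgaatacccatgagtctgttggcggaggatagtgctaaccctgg
Cd3e, chr9:45009562-45009861, minus strand: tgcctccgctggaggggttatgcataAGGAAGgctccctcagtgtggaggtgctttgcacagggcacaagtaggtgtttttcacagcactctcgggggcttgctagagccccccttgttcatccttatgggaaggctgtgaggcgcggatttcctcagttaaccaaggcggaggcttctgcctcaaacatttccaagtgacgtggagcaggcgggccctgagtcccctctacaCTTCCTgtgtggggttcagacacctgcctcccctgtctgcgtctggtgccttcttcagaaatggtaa
Lck, chr4:129573592-129573891, minus strand: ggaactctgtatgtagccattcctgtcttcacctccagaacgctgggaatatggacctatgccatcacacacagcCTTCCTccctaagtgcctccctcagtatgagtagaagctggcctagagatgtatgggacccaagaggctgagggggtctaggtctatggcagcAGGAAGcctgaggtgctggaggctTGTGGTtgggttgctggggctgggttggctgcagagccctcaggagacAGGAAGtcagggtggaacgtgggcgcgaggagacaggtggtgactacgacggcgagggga
Lat, chr7:126369519-126369818, minus strand: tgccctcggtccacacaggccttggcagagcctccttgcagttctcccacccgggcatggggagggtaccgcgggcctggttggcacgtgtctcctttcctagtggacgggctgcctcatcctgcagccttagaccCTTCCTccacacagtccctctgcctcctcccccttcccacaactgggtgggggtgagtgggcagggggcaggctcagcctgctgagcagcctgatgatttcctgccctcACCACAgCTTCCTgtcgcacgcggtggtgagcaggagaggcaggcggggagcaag
The Cd3g window held neither set of letters, and the Cd247 window (chr1:165788431-165788730) held the ETS letters at 2 places.

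Reads of the 10 genes were few in kidney, intermediate in TLS and most frequent in lymph nodes. Kidney libraries of mice H6, H20, H115 and H117 had 23, 32, 4 and 0 reads of the 10 genes, with a read for 6, 9, 2 and 0 of them. TLS of mice H6, H20 and H115 had 449, 281 and 166 such reads, and lymph nodes of proteinuric mice H6, H20 and H117 had 549, 730 and 913. Per 100000 reads outside ribosomal RNA genes this was 0 to 9.05 in kidney, 47.6 to 115.3 in TLS, 185 to 267 in lymph nodes of proteinuric mice and 167 to 391 in those of antibody-positive mice. The kidney, TLS and proteinuric lymph node libraries formed 3 ranges that did not overlap.

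**Figure D1:**
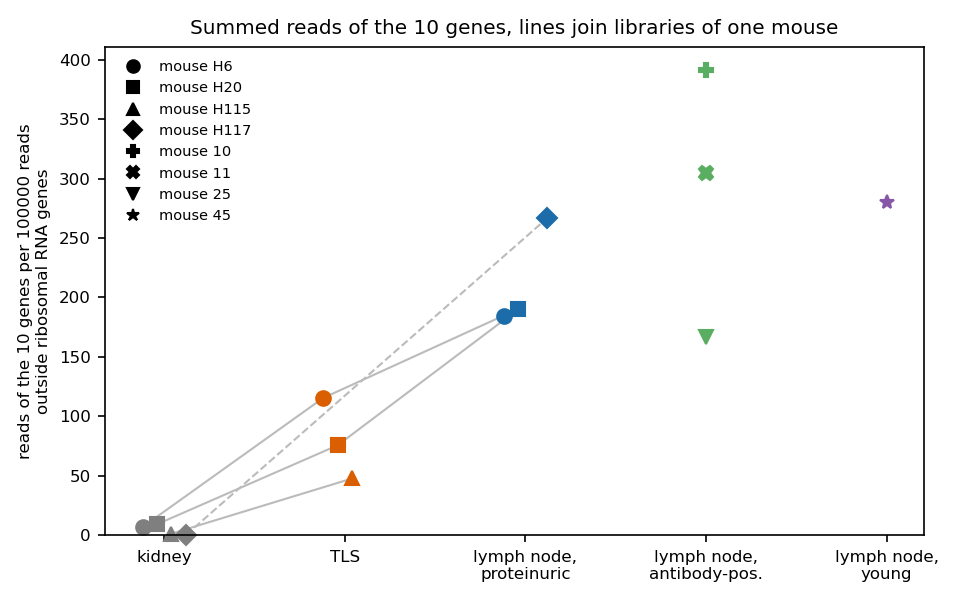
Reads of the 10 genes per 100000 reads outside ribosomal RNA genes (y axis) in each of the 14 libraries by group (x axis), with 1 symbol per mouse. Grey lines join libraries of one mouse (dashed for mouse H117, which has no TLS library). All kidney points lie at or below 9.05, the TLS points between 47.6 and 115.3, and the lymph node points from 167 upward.

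Within a mouse the order was the same for each of the 10 genes. TLS stood above kidney for 10 of 10 genes in mice H6, H20 and H115, with median differences of 3.17, 2.08 and 2.64 in log2(value + 1). In mouse H115 some of these differences rest on few reads. Its TLS had 2 reads of Cd247, 3 of Cd3e and 4 of Zap70, at or near the floor, and its kidney had 0 of each. Lymph node stood above TLS for 10 of 10 genes in mice H6 and H20, the 2 mice with both tissues, with median differences of 1.03 and 1.77. The summed normalised count of the 10 genes was 2.08 times as high in lymph node as in TLS in mouse H6 and 3.07 times in mouse H20.

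Among the CD3 chains, Cd3g had the most reads in every TLS library and Cd247 the fewest. Cd3g, the gamma chain, had normalised counts of 45.8, 43.2 and 45.8 in TLS of mice H6, H20 and H115 and of 97.1, 92.8 and 68.0 in lymph nodes of mice H6, H20 and H117. The 4 kidneys had 1, 4, 0 and 0 Cd3g reads. The TLS libraries were thus closer to each other for Cd3g (44.9 ± 1.48, SD, n = 3) than for any other member, and all lay between kidney and lymph node.

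Cd3d, the delta chain, had 26.3, 13.4 and 14.2 in the same TLS and 65.2, 46.4 and 32.4 in the lymph nodes, with 1, 2, 0 and 0 reads in kidney. Cd3e, the epsilon chain that pairs with both gamma and delta, had 14.4, 7.86 and 4.36 in TLS and 33.3, 18.9 and 40.5 in lymph nodes. Its only kidney read was in mouse H20. Cd247, the zeta chain that carries most of the tyrosine motifs, had 12.7, 4.72 and 3.27 in TLS and 18.8, 25.6 and 12.9 in lymph nodes, and likewise 1 read in kidney. The TLS of mouse H6 was the highest of the 3 for Cd3d, Cd3e and Cd247, and its Cd247 count came nearest to the lymph nodes.

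Trac, the alpha chain constant region, was the only member above the floor of 3 reads in more than 1 kidney. It had 8, 10, 3 and 0 reads in kidneys of mice H6, H20, H115 and H117. In TLS its normalised counts were 61.9, 44.8 and 20.7, and in lymph nodes 92.7, 78.6 and 111. Trbc2 had 9, 3, 1 and 0 reads in kidney, normalised counts of 102, 47.9 and 55.6 in TLS and 214, 217 and 232 in lymph nodes. The 3 lymph nodes were close to each other for Trbc2 (221 ± 9.65, SD, n = 3), with all TLS values below them. Trbc1 had 1, 4, 0 and 0 reads in kidney, 18.7, 24.4 and 15.3 in TLS and 98.5, 36.0 and 75.3 in lymph nodes, the widest spread of lymph node values among the 10 genes.

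Trbc1 had fewer reads than Trbc2 in all 10 libraries of TLS and lymph node. Its share of the reads of both genes was 13.7% to 33.3% (median 22.3%) over these libraries, 23.0% ± 9.39 in TLS and 23.2% ± 8.73 in proteinuric lymph nodes (SD, n = 3 each). The shares within a mouse went in opposite directions. In mouse H6 the share was 15% in TLS (95% Wilson interval 10.0 to 21.8, 140 reads) and 31.3% in lymph node (25.5 to 37.8, 214 reads). In mouse H20 it was 33.3% in TLS (24.5 to 43.6, 90 reads) and 13.96% in lymph node (10.3 to 18.7, 265 reads). Both pairs of intervals, which cover counting error only, lay apart, and the group means did not. The NZW strain is known for a deletion at the beta locus that removes Trbc1, and an F1 mouse then carries 1 intact copy, but its part in these shares was not tested.

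**Figure D2:**
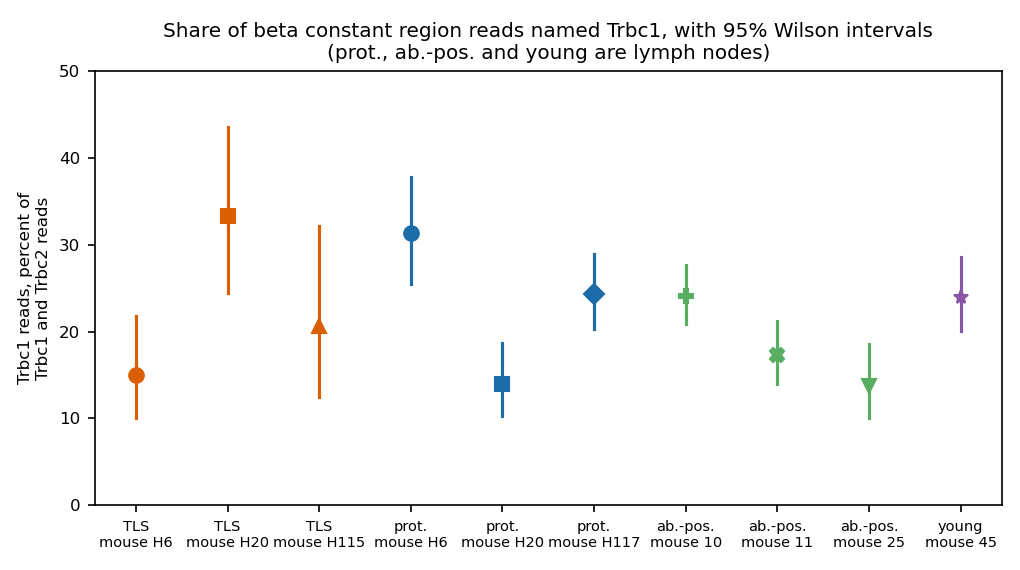
Reads counted for Trbc1 as a percent of the reads of Trbc1 and Trbc2 (y axis) in the 3 TLS and 7 lymph node libraries (x axis), with 95% Wilson intervals as vertical lines. Each point lies between 13.7% and 33.3%, and TLS and lymph node of mice H6 and H20 exchange their places.

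Reads on rearranging receptor segments had the same order of tissues as the constant regions. Of the 44 variable and joining segments of the alpha and beta loci in the table, kidneys of mice H6, H115 and H117 had a read on 0, and that of mouse H20 had 9 reads on 3 segments. TLS of mice H6, H20 and H115 had 139, 76 and 57 reads on 15, 13 and 11 segments. Lymph nodes of proteinuric mice H6, H20 and H117 had 156, 240 and 281 reads on 22, 27 and 29 segments. Those of antibody-positive mice 10, 11 and 25 had 587, 289 and 270 reads on 41, 32 and 17 segments. More reads can reach more segments, so the segment counts are no measure of diversity. The constant genes of the gamma and delta chains, which form the other kind of T-cell receptor, were not analysed here.

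The kinase and adaptor genes had the same order of tissues, and kidney had next to no reads of them. Zap70, the kinase that docks on the phosphorylated CD3 and zeta tails, had 0 reads in all 4 kidneys, the only member without a read there. Its normalised counts were 11.9, 6.29 and 5.45 in TLS and 24.6, 26.5 and 27.5 in lymph nodes. Lck, the kinase that starts the cascade, had 3, 4, 0 and 0 reads in kidney, 44.9, 22.0 and 16.4 in TLS and 68.1, 79.6 and 77.7 in lymph nodes. Lat, the scaffold that Zap70 phosphorylates, had its only 3 kidney reads in mouse H20. It had 50.9, 14.1 and 10.9 in TLS and 97.1, 79.6 and 69.6 in lymph nodes. TLS of mouse H6 was the highest TLS for all 3 genes.

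**Figure D3:**
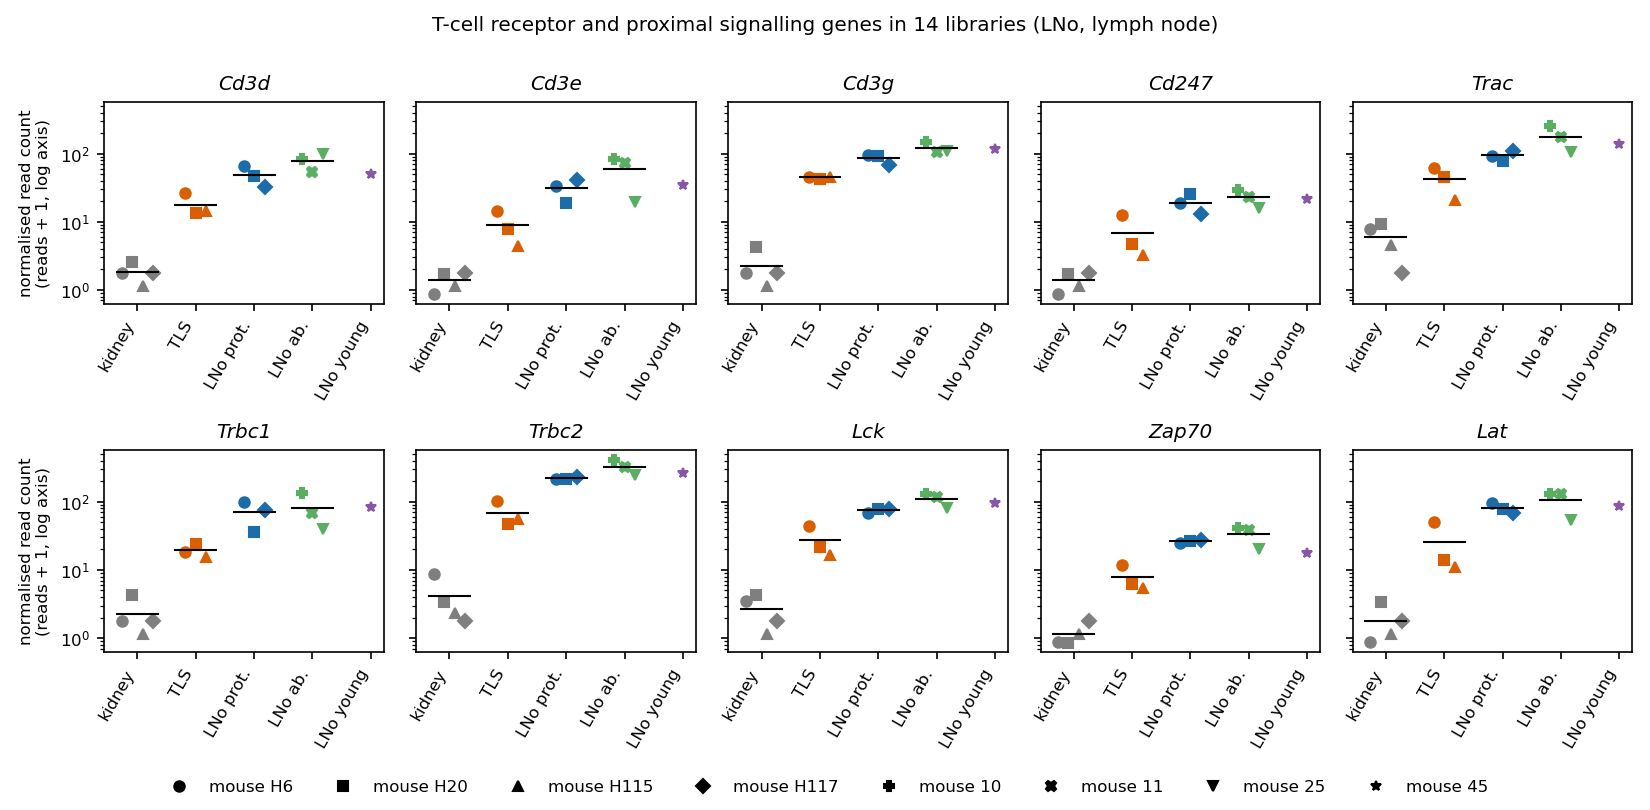
Normalised read counts (reads plus 1 over the size factor, log axis) of the 10 genes in the 14 libraries by group, with 1 symbol per mouse and a bar at the mean of groups of 3 or 4. Kidney points between 0.843 and 1.77 can be libraries with no read. TLS lies above kidney and below the proteinuric lymph nodes in every panel.

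Compared per length of the longest annotated transcript, Trbc2 ranked first and Cd247 last among the 10 genes in each of the 10 TLS and lymph node libraries. In TLS the level was 97.6 ± 42.1 normalised reads per kilobase for Trbc2, 44.5 ± 22.3 for Trac, 43.0 ± 1.35 for Cd3g and 25.1 ± 6.43 for Trbc1. It was 19.8 ± 18.0 for Lat, 12.3 ± 6.97 for Lck, 10.5 ± 4.50 for Cd3d, 5.45 ± 3.56 for Cd3e, 3.10 ± 1.59 for Zap70 and 2.03 ± 1.75 for Cd247 (SD, n = 3). Neighbours in this order differed by less than the larger of their SDs, except Trbc2 from Trac, Cd3g from Trbc1 and Cd3d from Cd3e. In proteinuric lymph nodes the order was Trbc2 (318 ± 14.3), Trac (99.5 ± 17.4), Trbc1 (93.4 ± 42.6), Cd3g (83.0 ± 15.1), Lat (65.6 ± 10.998), Lck (33.9 ± 2.96), Cd3d (29.0 ± 9.99), Cd3e (20.4 ± 7.50), Zap70 (11.2 ± 0.801) and Cd247 (6.11 ± 2.12). There the neighbours Trac and Trbc1, Trbc1 and Cd3g, Lck and Cd3d, and Cd3d and Cd3e differed by less than the larger of their SDs.

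To ask which of these differences exceeded the spread between mice, one limma fit took in all 3 tissues of the proteinuric animals over 7382 genes, and a gene was called at a Benjamini-Hochberg adjusted p under 0.05. Its fold changes are differences in log2(value + 1) and are too small for genes with few reads. Genes entered at a mean value of at least 5 over the fitted libraries. Those with next to no reads in kidney passed through the other tissues, so a call higher in kidney was not open to them. All comparisons share libraries, so each gives its own values for the members and no overlap between them is a result.

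All 10 members were called higher in TLS than in kidney, where 8.62% of all genes tested were. The TLS and kidney libraries did not overlap for 10 of 10 members, against 13.4% of all genes. Log2 fold changes ran from 1.57 (Cd247, SE 0.42, adjusted p = 0.0239) to 3.91 (Cd3g, SE 0.33, adjusted p = 4.19e-05), with a median of 2.72 against -0.01 over all genes. Of all 1084 genes called in either direction 58.7% were higher in TLS, and 79.6% by edgeR and 68.8% by DESeq2. Trbc2 rose by 3.88 (SE 0.43, adjusted p = 0.000141), Lat by 2.99 (SE 0.47, adjusted p = 0.00127) and Lck by 2.93 (SE 0.40, adjusted p = 0.000465). For the 5 members with at most 3 reads in each kidney, a bound can be set from the floor. TLS was at least 4.58-fold higher for Lat, 3.20-fold for Cd3d, 1.497-fold for Cd3e, 1.31-fold for Zap70 and 1.13-fold for Cd247. With these 5 genes at their bounds the members' median was 2.44. The bounds set the TLS mean against the highest kidney floor value, 5.32. For Cd247 only the TLS of mouse H6 (12.7) stood above that value, with 4.72 and 3.27 in mice H20 and H115. The call of Cd247 ended with a pseudocount of 5 and without the kidney of mouse H6, the kidney of mouse H115 or the TLS of mouse H6 (adjusted p = 0.0521 to 0.134 in these 4 fits), and the other 9 members were called in each alternative in which they were tested.

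Of 10 markers of kidney tubule cells, TLS had called decreases from kidney for 4 and increases for 0, with a median log2 fold change of -1.87. Over all 7382 genes 448 were called lower in TLS than in kidney. Aqp2, a water channel of the collecting duct, had 0.56 (adjusted p = 0.460), the means being 85.1 ± 54.7 for the 3 TLS and 55.8 ± 31.8 for the 4 kidneys (SD). The summed normalised count of the 10 markers, of which Kap had the most in kidney (9804 ± 4769, SD, n = 4), was 6849 to 20302 in kidney, 1815 to 8128 in TLS and 8.09 to 15.9 in proteinuric lymph nodes, where 9 of the 10 had no read in any of the 3 libraries. TLS of mice H6, H20 and H115 had tubule sums of 1815, 4432 and 8128 and, in the same order, summed counts of 389, 229 and 192 for the 10 receptor genes. The part of carried-over kidney RNA in the members' TLS values was not tested.

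In the comparison of lymph node with TLS, 7 of 10 members were called higher in lymph node, where 1.69% of all genes tested were, and the libraries did not overlap for 10 of 10 members, against 9.48% of all genes. These were Cd3d, Cd3e, Trbc1, Trbc2, Lck, Zap70 and Lat. Zap70 rose by 1.69 (SE 0.34, adjusted p = 0.00604), Cd3e by 1.76 (SE 0.42, adjusted p = 0.0166) and Lat by 1.97 (SE 0.51, adjusted p = 0.0246). Values for the 3 members that were not called were 1.49 for Cd247 (95% interval 0.52 to 2.45, adjusted p = 0.0523), 1.25 for Trac (0.14 to 2.36, adjusted p = 0.161) and 0.90 for Cd3g (0.14 to 1.67, adjusted p = 0.138). The median over the members was 1.61, and over all genes 0.04. With the TMM scaling of edgeR these were 1.45 and -0.14. Of all 780 genes called 16.0% were higher in lymph node, and 4.84% by edgeR and 5.05% with reads scaled (RPM) to those outside ribosomal RNA genes.

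How many members were called in this comparison depended on the libraries and the model, while the direction was the same in every alternative. With the mouse as a replicate block, which uses that tissues of one number came from 1 animal, 2 of 10 members were called, Trbc2 (1.75, adjusted p = 0.0391) and Zap70 (1.52, adjusted p = 0.0413). Without the 3 libraries rich in ribosomal RNA 1 was called, and the edgeR quasi-likelihood test on the reads called 2. Leaving out single libraries gave 1 to 8 calls, with 1 without the TLS of mouse H115 or the lymph node of mouse H6, 2 without the TLS of mouse H20 or the lymph node of mouse H117, and 3 without the lymph node of mouse H20. Zap70 was the only member called in each of the 21 alternatives in which it was tested, with log2 fold changes of 1.31 to 1.99. The largest count, 10 of 10, came from taking all 7 lymph node libraries as one group.

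**Figure D4:**
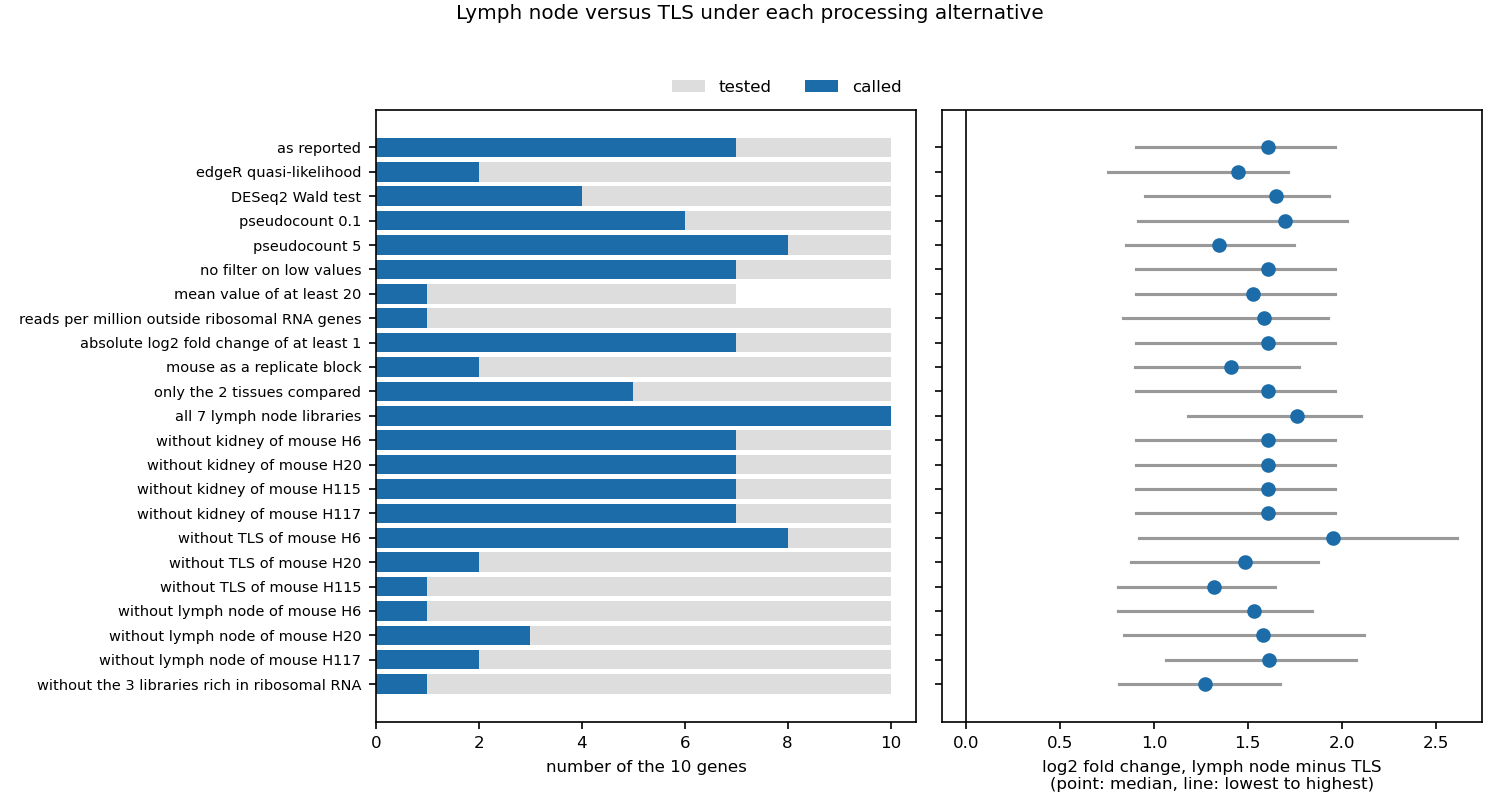
Left, number of the 10 genes tested (grey) and called (blue) in lymph node versus TLS under each alternative on the y axis. Right, the median (point) and range (line) of the log2 fold changes, lymph node minus TLS. Calls range from 1 to 10, and no line reaches 0.

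Against kidney, lymph node was higher for all 10 members (10 of 10 called, against 20.8% of all genes tested, and 10 of 10 not overlapping, against 23.3%). Log2 fold changes ran from 3.05 (Cd247, SE 0.42, adjusted p = 7.82e-05) to 5.64 (Trbc2, SE 0.43, adjusted p = 1.11e-06), with a median of 4.26 (3.93 with the 5 low kidney genes at their bounds) against 0.05 over all genes. Lat was at least 15.2-fold higher, Cd3d 8.81-fold, Cd3e 5.60-fold, Zap70 4.72-fold and Cd247 3.39-fold. All 10 calls stood in each alternative in which the gene was tested.

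**Figure D5:**
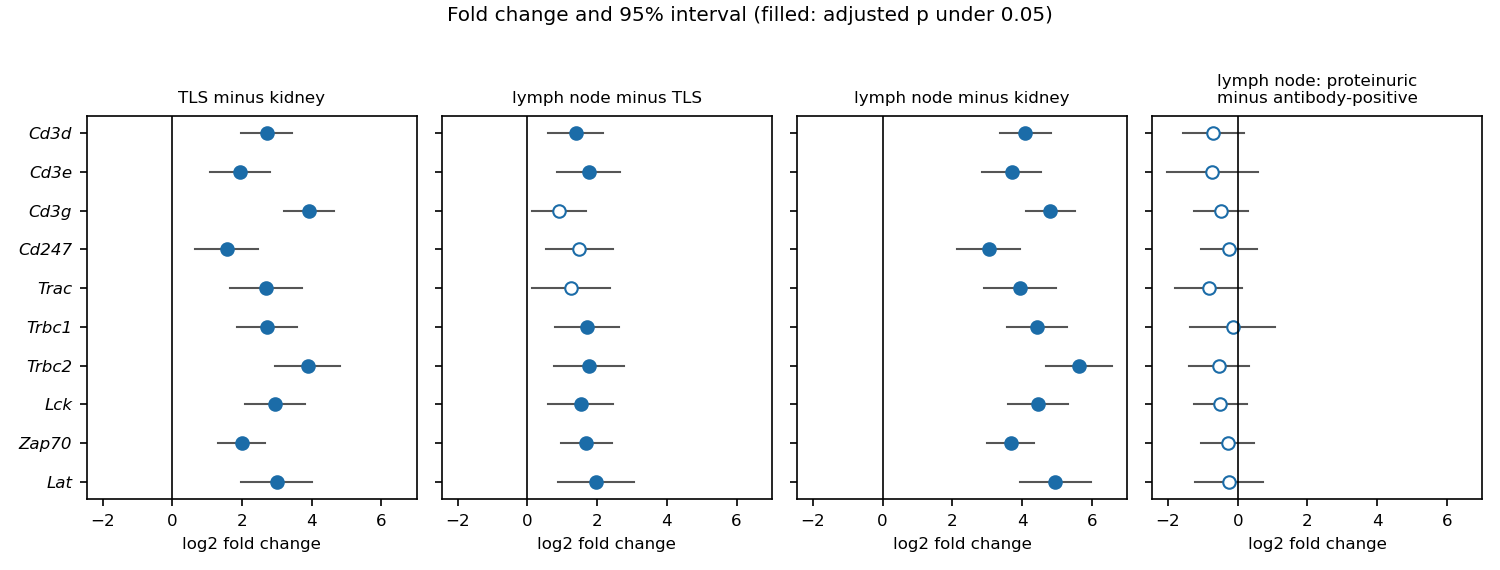
Log2 fold changes (x axis, log2(value + 1) scale) of the 10 genes with 95% intervals in 4 comparisons, from left to right TLS minus kidney, lymph node minus TLS, lymph node minus kidney, and proteinuric minus antibody-positive lymph node. Filled points are called. All points of the first 3 panels lie right of 0, and all of the last lie left of it, uncalled.

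The stage of disease was compared in lymph nodes alone, 3 of antibody-positive against 3 of proteinuric mice, in a limma fit of their own over 6810 genes. RNA kit and age differ with the stage in this comparison. Here 0 of 10 members were called, as were 0 of all genes (0%), with 0 of 10 members and 215 of all genes at an unadjusted p under 0.05. DESeq2 called 13 genes and no member, and edgeR called 0. All 10 members had a lower mean in proteinuric than in antibody-positive mice, with log2 fold changes from -0.84 (Trac, 95% interval -1.79 to 0.11) to -0.14 (Trbc1, -1.36 to 1.07). The sign for Trbc1 turned under RPM outside ribosomal RNA genes (0.02) and without the library of proteinuric mouse H20 (0.27) or of antibody-positive mouse 10 (0.30). For Trbc2, values of 418, 320 and 247 in antibody-positive mice 10, 11 and 25 all lay above 214, 217 and 232 in proteinuric mice, and likewise for Lck and Cd3g, so that 3 of 10 members did not overlap in that direction, against 6.08% of all genes. Markers of T cells outside the members and of some other cells also had lower medians in proteinuric mice. Of 9 T-cell markers tested, 0 were called and 1 did not overlap (median -0.40). Of 2 natural killer cell markers tested, 0 were called and 1 did not overlap (median -0.68). Of 7 B-cell markers tested, 0 were called and 0 did not overlap (median -0.14). Of 4 mast cell and platelet markers tested, 0 were called and 3 did not overlap (median -1.51), with sums of 50.05 to 71.3 in antibody-positive and 10.5 to 41.7 in proteinuric mice. Of 6 lymph node stroma markers tested, 0 were called and 2 did not overlap (median -0.53), and of 7 macrophage markers 0 were called, with a median of 0.53. Their part in the members' values was not tested. Intervals of the members' width leave changes of more than 1 log2 unit possible for all 10 members.

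Antibody-positive mice 10, 11 and 25 differed among themselves. Cd3e had 83.4, 73.2 and 19.5 in them, Trac 253, 177 and 104, and Lat 132, 129 and 53.9. The node of mouse 25, which was 18 weeks old, was the lowest of the 3 for 8 of the members, while Cd3d was highest in it (82.5, 53.3 and 98.7). The single young lymph node had values within the range of the other 6 lymph nodes for 9 of 10 members, among them 119 for Cd3g, 261 for Trbc2 and 96.6 for Lck. Its Zap70 count, 17.9, was below the lowest of the others (20.7), and with 1 library there was no test.

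Over all 14 libraries the 10 genes rose and fell together, with Pearson r of log2(value + 1) between 0.91 and 0.99 (median 0.96) over the 45 pairs, where the points fall apart by tissue. Over the 7 lymph node libraries alone r ran from -0.01 (Cd3d and Cd3e) to 0.97 (Trac and Trbc2), with a median of 0.65. Libraries share depth and a size factor, so these are descriptions. The genes whose profile over the 14 libraries was most like the mean of the members were Glycam1 (r = 0.99), a mucin-like ligand made by high endothelial venules of lymph nodes, Tnfrsf13b (0.99), a receptor of B cells and plasma cells also called TACI, and Sept1 (0.99), Fli1 (0.99), an ETS factor of blood and vessel cells, and Tbc1d10c (0.99), among 7380 genes compared.

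Coreceptors and costimulatory or inhibitory receptors of T cells had the same direction as the receptor genes. Of 19 such genes, 14 were tested. In TLS 12 were called higher than in kidney, against 8.62% of all genes. In lymph node 6 were called higher than in TLS (1.69% of all genes) and 14 higher than in kidney (20.8%). Called the other way were 0, but all 14 had at most 3 reads in each kidney. They passed the filter through the other tissues, so a call higher in kidney was not open to them. Among the genes called in TLS against kidney, the 3 with the largest log2 fold change were Cd2, an adhesion receptor (3.45, at least 4.09-fold higher), Cd4 (2.61, at least 2.71-fold) and Btla, an inhibitory receptor (2.60, at least 2.43-fold). Among those called in lymph node against TLS they were Cd8a (2.12, SE 0.37, adjusted p = 0.00219), Cd8b1 (1.72), which together form the coreceptor of cytotoxic T cells, and Cd6 (1.63). Cd8a had 2 to 8 reads in TLS, 16 to 36 in proteinuric lymph nodes and 0 in kidney. In lymph node against kidney the leading genes were Cd2 (4.94, at least 12.1-fold), Btla (3.91, at least 6.33-fold) and Cd8b1 (3.69, at least 5.37-fold). The list's median was 1.29 in lymph node against TLS, and 1.84 (0.70 with genes at their bound) in TLS against kidney.

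The relay genes downstream of Lck, Zap70 and Lat are less restricted to T cells, and their medians were lower than those of the members, a difference that was not tested. Of 41, 40 were in the table and 27 were tested. In TLS 13 were called higher than in kidney, against 8.62% of all genes. In lymph node 4 were called higher than in TLS (1.69% of all genes) and 19 higher than in kidney (20.8%). Higher in kidney than in lymph node was 1, against 1698 of all 7382 genes. It was Itpr1, a calcium release channel of many cell types (-1.83, adjusted p = 0.00208), named after its value was seen. In TLS against kidney, Vav1, an exchange factor of blood cells, rose by 2.49 and Dgka, a diacylglycerol kinase, by 2.15. In lymph node against TLS, Grap2, an adaptor that binds Lat, rose by 1.89, Fyn, a kinase related to Lck, by 1.49 and Lcp2, the adaptor SLP-76, by 1.42. In lymph node against kidney Grap2 rose by 3.57 (at least 4.93-fold) and Vav1 by 3.49. The medians were 1.20 (0.75 with genes at their bound), 0.66 and 2.05 (1.06 with genes at their bound) for TLS against kidney, lymph node against TLS and lymph node against kidney.

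Of 20 genes listed as negative regulators of receptor signalling, though Ptprc also has an activating part, 9 were tested. In TLS against kidney 7 were called higher, led by Lax1, an adaptor of B and T cells (3.66, at least 5.96-fold), Ptprc, the CD45 phosphatase (2.68), and Ptpn6, the SHP-1 phosphatase (2.13). In lymph node against TLS 1 was called, Csk, the kinase that holds Lck inactive (1.32, SE 0.34, adjusted p = 0.0262). In lymph node against kidney 7 were called higher, led by Lax1 (4.63, at least 11.7-fold), Ptprc (3.90) and Ptpn6 (3.40). The medians were 1.58, 1.02 and 2.65 in these 3 comparisons. The lowest log2 fold changes were -0.45, -0.32 and -0.77, of genes that were not called. In the same comparisons, for this list and the next, 8.62%, 1.69% and 20.8% of all genes were called higher. Of 15 transcription factors of the T lineage, 5 were tested. Calls were Tcf7 (2.39, at least 2.14-fold), Ikzf1 (2.37, at least 2.56-fold) and Ets1 (1.57) in TLS against kidney, Tcf7 (2.19), Klf2 (1.77) and Ikzf1 (1.34) in lymph node against TLS, and 4 in lymph node against kidney, led by Tcf7 (4.58, at least 9.34-fold), Ikzf1 (3.70, at least 7.11-fold) and Ets1 (2.58). The medians were 1.57 (1.10 with genes at their bound), 1.34 and 2.58. The lowest log2 fold changes, all of Id3, were -0.11, -0.70 and -0.81, none of them called. Id3 had means of 38.1 in kidney, 37.1 in TLS and 23.0 in proteinuric lymph nodes. Tcf7, which is needed for T-cell fate, had 0 reads in kidney. No gene of the 4 lists was called between the lymph nodes of antibody-positive and proteinuric mice.

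Genes of the B-cell receptor complex and its signalling were set beside the T-cell ones. Of 15, 13 were tested. Of these, 12 were called higher in TLS than in kidney (8.62% of all genes) and 13 in lymph node against kidney (20.8%). In lymph node against TLS 0 of 13 were called, against 1.69% of all genes called higher in lymph node. Here 6 of 13 had an unadjusted p under 0.05, as did 10 of the 10 T-cell receptor genes. Over all 7382 genes, 1671 had such a p in either direction. Cd79a, the signalling partner of membrane immunoglobulin, rose by 4.85 in TLS against kidney and Cd79b, its partner, by 4.38, and they rose by 5.66 and 5.38 in lymph node against kidney. In lymph node against TLS all 13 had a fold change above 0 (0.50 to 1.68), and 5 did not overlap, against 9.48% of all genes. Their list's median was 0.99 in lymph node against TLS and 1.61 for the 10 receptor genes, and this difference between the lists was not tested. The summed count of the 10 genes over that of 7 B-cell markers was 0.566 to 0.786 in TLS and 0.745 to 1.30 in proteinuric lymph nodes, ranges that overlapped. Of these 7 markers, 1 was called higher in lymph node than in TLS, against 1.69% of all genes. The libraries did not overlap for 3 of the 7, against 9.48%. Some of the 7, such as Cd79a and Cd79b, also stand in the list of 15.

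Markers of other cells that could carry part of these genes were read beside the members. T-cell markers outside the members (10 genes) had sums of 51.2 to 134 in TLS, 233 to 269 in proteinuric lymph nodes and 11.6 to 19.4 in kidney, where 9 of the 10 had no read in any library and only Thy1, which other cells also express, had reads. All but Thy1 and Il7r also stand in the lists above. Of the 7 tested, 5 were called higher in TLS than in kidney (8.62% of all genes) and 3 higher in lymph node than in TLS (1.69%). Natural killer cell markers (6 of 9 in the table) had sums of 5.30 to 10.6 in kidney, 7.07 to 14.4 in TLS and 39.7 to 47.8 in proteinuric lymph nodes, and the 1 tested, Gzma, a granzyme also made by cytotoxic T cells, was called higher in lymph node than in TLS (2.27, adjusted p = 0.00311). Sums of lymph node stroma markers (7 genes) were 17.4 to 36.3, 226 to 515 and 2266 to 2862 in the same 3 tissues, with most of the lymph node sum from Glycam1 (1688 ± 83.2, SD, n = 3) and Ccl21a (628 ± 268). Of the 5 stroma markers tested, 2 were called higher in lymph node than in TLS (1.69% of all genes). Higher in TLS was 1, Pdpn (-1.73, adjusted p = 0.0303), against 655 of all 7382 genes. Sums of macrophage markers (7 of 8 in the table) were 92.3 to 393, 397 to 954 and 664 to 1054. Mast cell and platelet markers (6 of 11 in the table) had 8.11 to 16.0, 5.09 to 10.2 and 10.5 to 41.7. All these sums hold 1 added read per gene over the size factor. Of the natural killer markers only Gzma had a read in kidney, so their kidney sums stand at or near the value of no read. In TLS Gzma had 2 to 9 reads, Prf1 and Eomes at most 1, and Ncr1, Klra4 and Klrk1 had 0. In proteinuric lymph nodes Gzma made up the largest part of the sum (26.2 ± 5.44, SD, n = 3). Of the mast cell and platelet markers only Pf4 had a read in kidney or TLS. The part of natural killer cells and of the cell mix in the members' values was not tested.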

How the data were processed

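Poly(A) RNA of 14 tissue samples was sequenced on an Ion Torrent PGM. The study's methods give alignment and counting in CLC Genomics Workbench 8 with default settings on GRCm38, while the labels' processing notes name BWA 0.6.2-r126, HTSeq, edgeR, limma and mm9 for all samples of the series. The deposited values are a normalised signal per gene, which the authors made by dividing reads plus 1 by a size factor of the library. Dividing by each library's lowest value gave whole reads for 100% of values (tolerance 1e-06), and 1 read was taken off. The whole-kidney samples of the series that were sequenced on another platform were not analysed here. Columns of no sample numbered 0.

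Values were tested as log2(value + 1) with limma 3.58.1 (R 4.3.3, trend and robust, Benjamini-Hochberg adjustment over all genes, mean value of at least 5). The 10 libraries of proteinuric mice entered one fit and the 6 lymph nodes of antibody-positive and proteinuric mice another. The young lymph node entered no test. Alternatives were edgeR 4.0.16 and DESeq2 1.42.0 on the reads, pseudocounts of 0.1 and 5, other filters and scalings, a minimum log2 fold change of 1, the mouse as a block, and each library left out. The fits were tested on simulated data. Replicates are mice.

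Tissues with one number came from 1 mouse, by the labels, which pairs them. Deviations from the group means correlated with a median r of 0.114 (-0.335 to 0.454) over 8 same-mouse pairs and of 0.0353 (-0.498 to 0.512) over 25 pairs of different mice. By tissue pair, the 3 same-mouse pairs of kidney and TLS had r of 0.351 to 0.454 (different mice, median -0.239), while the same-mouse medians were -0.326 for kidney and lymph node and -0.120 for TLS and lymph node.

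The members and the gene lists were chosen with earlier results of these data known. Named were all 10 members, and of each list the 3 called genes with the largest change in a comparison. Some genes that this rule picks are not reported here. Intervals are 95% and Wilson intervals cover counting error only. Promoter windows reach from 250 bases before to 50 after a start site.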

Additional observations from a re-analysis of the deposited data

Results flagged for a closer look

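Among the 26 quantities tested in the 4 kidney libraries, 2 had a library far from the others, where chance flags about 1 in 20 groups. Both concern the kidney of mouse H117, in which no read of the 10 genes was found. Ribosomal RNA genes took 55.6% of its reads against 1.64%, 2.73% and 5.13% in the kidneys of mice H6, H20 and H115. Its reads outside these genes numbered 167440 against 340874, 353529 and 347139. Without this library, 10 of 10 members were called higher in TLS than in kidney and 10 of 10 higher in lymph node than in kidney.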

How the results depend on the processing

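Over the 10 members in 4 comparisons, 708 of 778 alternative values kept their direction and side of the threshold, 62 were no longer called, 5 became called and 3 turned sign. Members called higher in lymph node than in TLS (7 of 10) fell to 2 with edgeR, 4 with DESeq2, 1 of the 7 tested at a mean value of at least 20, 1 with RPM outside ribosomal RNA genes, 2 with the mouse as a replicate block and 1 without the 3 libraries rich in ribosomal RNA (chosen after seeing the data). They were 5 with only the 2 tissues, 10 with all 7 lymph nodes and 1 to 8 with single libraries left out. The cause was not tested. Members called between kidney and TLS were 9 to 10 with a library left out and 7 of the 7 tested in the fits with fewer genes.

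Over all genes, calls between kidney and TLS (1084) were 566 at a mean value of at least 20 and 530 to 1344 with a library left out. Between lymph node and TLS (780) they were 315 at that minimum, 518 with only the 2 tissues, 1280 with all 7 lymph nodes, 408 without the libraries rich in ribosomal RNA and 480 to 977 with a library left out. Between kidney and lymph node (3230) they were 1284 at that minimum and 2648 to 3272 with a library left out. Between the stages (0) they were 13 with DESeq2, 8 with no filter and 0 to 5 with a library left out (5 without antibody-positive mouse 11). Trbc1 between the stages (-0.14) was 0.021 with RPM and -0.55 to 0.30 with a library left out (0.27 without proteinuric mouse H20, 0.30 without antibody-positive mouse 10). The replicate block changed no call of a member between kidney and either other tissue. A gene with at most 3 reads in each kidney is limited by depth there.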

Other observations

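Use of the beta variable segments was uneven in 1 TLS. Reads on Trbv13-2 made up 57.1% of the 49 reads on the 12 Trbv segments of the table in TLS of mouse H115 (28 reads, 95% Wilson interval 43.3 to 70.0), while the TLS of H6 had 20.9% and that of H20 had 22.9%. In the lymph nodes of all mice the share of this segment was 16.9% to 29.2%. Mouse H115 gave no lymph node library, so its own lymph node could not be set beside its TLS. Trbv13-1 took 14.3% to 27.1% of the Trbv reads in TLS and 19.8% to 35.6% in lymph nodes of proteinuric mice. The segment was singled out after its values were seen, and neighbouring Trbv13 segments are alike in sequence, so that the split of reads among them is uncertain.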
